A study of Homo sapiens with 12 samples.

Results

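Cholesterol synthesis and its regulation were followed through 35 genes, given as a list of symbols: 21 enzymes and associated proteins of the route to cholesterol, 5 genes of the SREBP control system, 4 genes of sterol transport and 5 enzymes of fatty acid synthesis and desaturation that SREBP factors are known to induce. Each was matched by its symbol to 1 transcript, and all 35 were found among the 19972 transcripts of the deposited count table, of which 10932 had a gene name. The cells were neurons induced from H1, a line of human embryonic stem cells, with overexpressed Ngn2, a neurogenic transcription factor, and they were harvested at day in vitro 14. One genotype was homozygous for an allele of LLPH that the labels call Nterm (Nterm/Nterm), and the other was wild type at LLPH (wt/wt), with 3 RNA-seq and 3 Ribo-seq libraries of each, 12 in all. Both genotypes were kept without added glia, with doxycycline at 2 µg/mL and the antimitotic cytosine arabinoside (AraC) at 4 µM in medium given on days 5 and 10, and both were harvested in cycloheximide, which arrests ribosomes, at 100 µg/mL. RNA-seq of polyA RNA measured mRNA levels, and Ribo-seq counted footprints, the stretches of mRNA that ribosomes protect from nuclease. What the Nterm allele alters in LLPH and whether replicates or genotypes come from separate cultures or clones is not stated in these sources.

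Cells build cholesterol from acetyl-CoA through mevalonate and isoprenoid diphosphates, which are joined to squalene, cyclised to lanosterol and trimmed to cholesterol. The route is controlled by the SREBP transcription factors: when membranes of the endoplasmic reticulum are poor in sterol, SCAP carries SREBP to the Golgi, where it is cleaved to a nuclear form that activates the genes of the route, and INSIG proteins hold SCAP back when sterol is plentiful. In the brain cholesterol is made locally, by neurons during their growth and largely by astrocytes later on, and lysosomal NPC1 and NPC2 return cholesterol taken up from outside to the rest of the cell.

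SREBP acts at promoters through the sterol regulatory element, and its activity is known to need partner factors, NF-Y at CCAAT boxes and SP1 at GC boxes. Promoter windows of 300 bases, from 250 bases before to 50 bases after each RefSeq transcription start of GRCh38.p14, held the classical element TCACNCCAC, on either strand, in 1 of the 31 members with a window, SREBF2 (3.23% of members, against 1.39% of 27305 genes). CCAAT, on either strand, was in 23 of the 31 members (74.2%, against 39.7% of all genes), and the GC box GGGCGG, on either strand, in 29 of 31 (93.5%, against 48.3%). Over single windows, of which a gene can have several, 1, 25 and 37 of the 42 member windows held them (2.38%, 59.5% and 88.1%), against 1.13%, 34.6% and 45% of 35116. These backgrounds take every gene with a window, not only genes expressed in these neurons as the members are. No background of expressed genes was read, so the shares are not taken as a trait of sterol genes. The motifs can overlap one another by their end letters, which the capitalised runs printed here do not, and a match is a run of letters, not a shown binding site. Of the 15 members with a window whose RNA was called higher in Nterm/Nterm neurons (adjusted p under 0.05), 13 held CCAAT, as did 10 of the 16 others. The windows of SREBF2, LSS, MVK and NPC2 are printed because they show the 1 element found, the window of the synthesis gene with the largest RNA increase, a member window with 5 CCAAT boxes (NSDHL also has 5), and the window of the member that was lower in RNA by the most. The capitals mark TCACNCCAC and CCAAT, which reads ATTGG where it lies on the other strand. They lie at chr22:41832855-41833154, plus strand, chr21:46228725-46229024, minus strand, chr12:109573544-109573843, plus strand and chr14:74493463-74493762, minus strand, and each runs 5′ to 3′ along the strand of its gene.
SREBF2: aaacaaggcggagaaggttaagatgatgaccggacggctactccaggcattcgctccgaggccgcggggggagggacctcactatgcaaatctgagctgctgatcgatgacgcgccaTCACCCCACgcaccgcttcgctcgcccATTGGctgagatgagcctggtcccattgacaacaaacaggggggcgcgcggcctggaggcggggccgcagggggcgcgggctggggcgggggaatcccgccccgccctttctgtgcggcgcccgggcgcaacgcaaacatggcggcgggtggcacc
LSS: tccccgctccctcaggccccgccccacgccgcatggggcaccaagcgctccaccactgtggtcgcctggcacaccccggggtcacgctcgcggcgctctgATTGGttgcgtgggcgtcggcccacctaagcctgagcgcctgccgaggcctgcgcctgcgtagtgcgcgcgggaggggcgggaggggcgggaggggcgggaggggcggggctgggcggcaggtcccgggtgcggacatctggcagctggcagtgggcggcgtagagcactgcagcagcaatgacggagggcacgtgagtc
MVK: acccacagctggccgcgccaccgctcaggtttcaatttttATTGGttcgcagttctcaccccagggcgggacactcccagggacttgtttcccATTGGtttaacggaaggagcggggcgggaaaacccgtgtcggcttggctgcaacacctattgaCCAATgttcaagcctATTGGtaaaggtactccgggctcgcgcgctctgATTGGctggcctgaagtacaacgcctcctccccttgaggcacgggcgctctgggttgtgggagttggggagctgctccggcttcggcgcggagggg
NPC2: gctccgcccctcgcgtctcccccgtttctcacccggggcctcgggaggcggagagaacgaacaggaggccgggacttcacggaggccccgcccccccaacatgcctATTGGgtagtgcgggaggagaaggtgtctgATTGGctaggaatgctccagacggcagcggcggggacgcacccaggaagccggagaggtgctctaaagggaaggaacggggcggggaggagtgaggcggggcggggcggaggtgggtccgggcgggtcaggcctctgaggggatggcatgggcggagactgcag

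The RNA libraries held 18944427 to 25089790 counts and the footprint libraries 12652833 to 16356419, and a member had between 140 and 15391 counts in a library. The genotype tag of the 6 Ribo-seq samples names the opposite genotype to their titles, and the titles were followed. The names of the footprint count columns give the same genotypes as the titles. LLPH footprints were fewer in the libraries titled Nterm/Nterm, with 39, 22 and 36 counts against 88, 135 and 98 in wt/wt (log2 change -1.60 ± 0.19 SE, adjusted p = 1.77e-05), and LLPH RNA was not called (0.14 ± 0.06, adjusted p = 0.135). What the allele does to LLPH is not given, so this does not settle the label conflict. Overlaps between genes bear on some members, since the use of strand and of reads with several matches is not given: by RefSeq, 10 members overlap a protein-coding gene, 5 overlap a named antisense gene and 6 have named pseudogenes (FDPS has 10).

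In RNA, the sterol synthesis genes of Nterm/Nterm neurons were higher by small amounts at steps all along the route. The 2 members called lower, NPC1 and NPC2, were a smaller share than among all transcripts, so they are read as single genes only. Genotypes were compared with edgeR's quasi-likelihood test, and a gene was called at a Benjamini-Hochberg adjusted p under 0.05 over all transcripts tested. Higher in Nterm/Nterm neurons were 17 of the 35 members, where the background was 7.25% of 14659 transcripts, and lower were 2, NPC1 and NPC2, where the background was 10.6%. Among named transcripts, which are the better covered ones, the backgrounds were 8.91% and 11.7%. The median log2 change of the members was 0.18, a 1.14-fold difference, beside 0.00 for all transcripts, and it ran between -0.37 and 0.34, with 29 of 35 above 0 (background 49.9%). For 23 members each Nterm/Nterm library lay above each wt/wt library (background 17.4%), and for 2 each lay below (background 18.8%). Of the 21 genes of the route itself, 13 were higher and 0 lower, with a median of 0.20, and 0 of the 21 were lower at an unadjusted p under 0.05 or with DESeq2 or limma-voom. The members together made up 0.519%, 0.503% and 0.550% of the counts of Nterm/Nterm RNA libraries, against 0.457%, 0.456% and 0.483% of wt/wt RNA libraries. With replicate number as a block, 25 members were higher and 2 lower, where the backgrounds were 14.3% and 16.4%. The number of members called higher fell to 10 when Nterm/Nterm RNA library 1 was left out, to 9 for Nterm/Nterm RNA library 3, to 3 for wt/wt RNA library 1 and to 3 for wt/wt RNA library 2, where the background fell to 5.34%, 3.98%, 1.56% and 1.98%. The median log2 change of the members stayed between 0.14 and 0.20 in all 6 such fits. In the same libraries 9 of 14 neuron markers were higher and 9 of 13 mesenchymal markers lower.

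**Figure D1:**
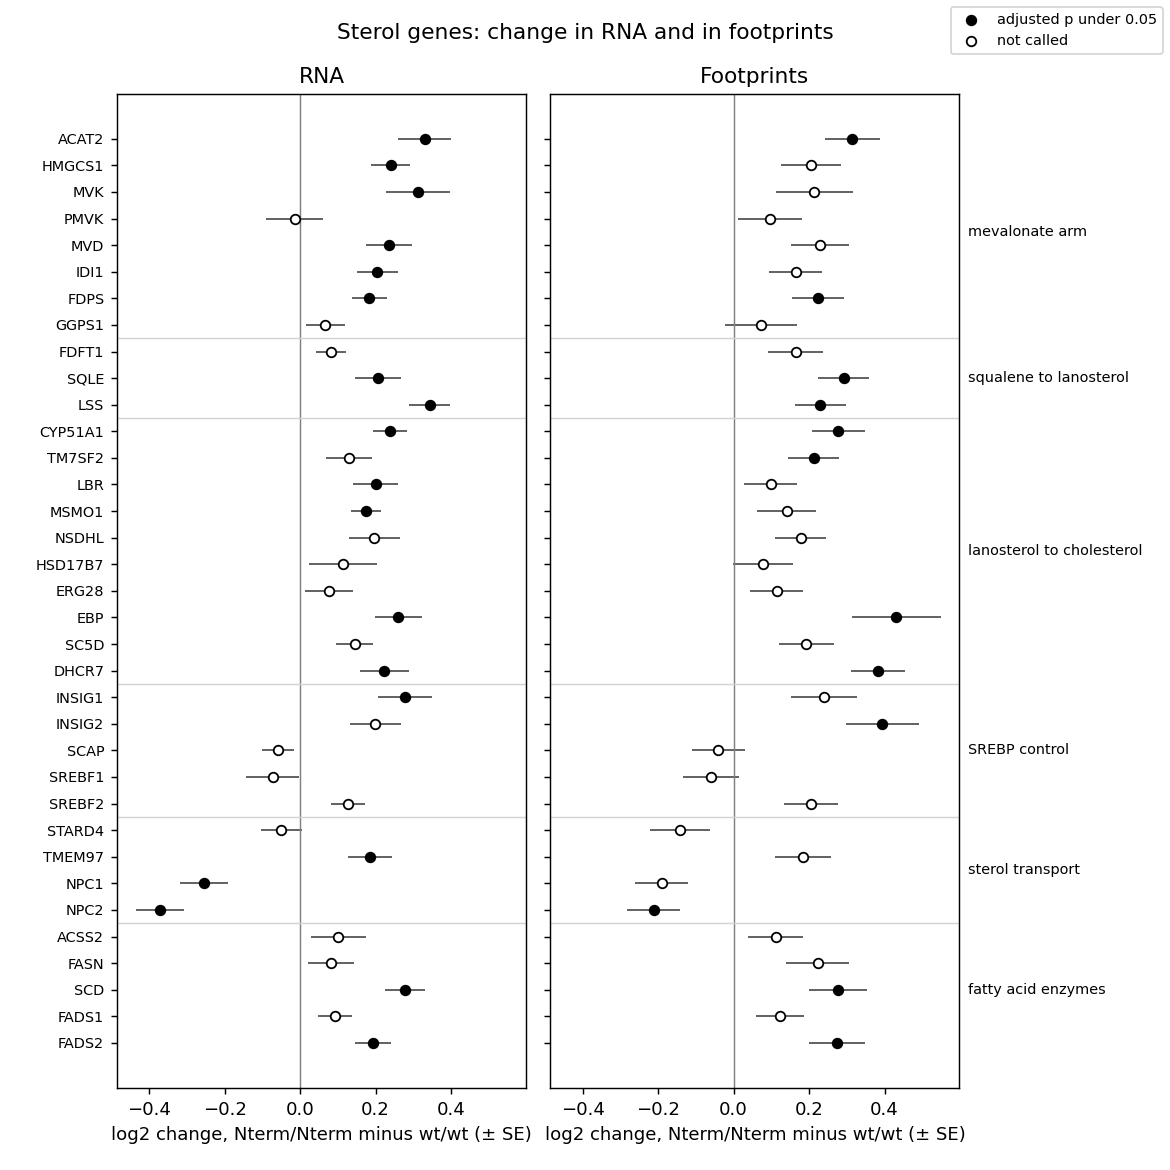
Log2 change of each of the 35 genes in RNA (left) and in footprints (right), Nterm/Nterm minus wt/wt, with its standard error. Genes run along the pathway from top to bottom, and filled points passed an adjusted p of 0.05; in RNA 17 filled points lie to the right of 0 and 2, NPC1 and NPC2, to the left.

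In footprints the same direction was seen with fewer calls. Higher were 11 members (background 4.36% of 13566 transcripts) and lower was 1, NPC2 (background 8.91%), with a median log2 change of 0.19 beside 0.01 for all transcripts and 30 of 35 above 0 (background 52.1%). Among named transcripts the backgrounds were 4.80% and 8.13%. In 20 members each Nterm/Nterm footprint library exceeded each wt/wt footprint library (background 14.8%), and in 3, STARD4, NPC1 and NPC2, each lay below (background 15.9%). Of the 21 genes of the route, 8 were higher and 0 lower (0 also at an unadjusted p under 0.05 and with DESeq2 or limma-voom). The 9 members called higher in both assays, ACAT2, FDPS, SQLE, LSS, CYP51A1, EBP, DHCR7, SCD and FADS2, make up 9 of the 17 higher in RNA and 9 of the 11 higher in footprints. The sign of the change was the same in both assays for 34 of the 35, with PMVK the exception. The members held 0.666%, 0.661% and 0.699% of the counts of Nterm/Nterm footprint libraries, against 0.589%, 0.593% and 0.625% of wt/wt footprint libraries. Members called higher numbered 6 without Nterm/Nterm footprint library 1, 5 without Nterm/Nterm footprint library 3, 4 without wt/wt footprint library 1 and 4 without wt/wt footprint library 2, beside backgrounds of 2.72%, 1.95%, 1.23% and 1.89%. By the genotype tag in place of the title the signs turn, with 1 member higher (background 8.91%), 11 lower (background 4.36%) and a median of -0.19. In the footprint libraries 4 of 14 neuron markers were higher and 6 of 13 mesenchymal markers lower, with median log2 changes of 0.24 and -0.20. All 14 neuron markers had a footprint change above 0, and their median exceeded that of the members.

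The mevalonate arm, from acetyl-CoA to farnesyl and geranylgeranyl diphosphate, had 6 of 8 members higher in RNA (background 7.25%). In footprints 2 of 8 were higher (background 4.36%). ACAT2 is the cytosolic thiolase that joins acetyl-CoA units, the entry to the route. In libraries 1, 2 and 3 in turn, the order used for all values by library, its RNA stood at 153, 136 and 170.2 CPM in Nterm/Nterm libraries, against 121, 117 and 128 CPM in wt/wt libraries, where CPM are counts scaled to library size. The genotypes did not overlap, and the log2 change was 0.33 ± 0.07 (SE, adjusted p = 0.00866). Its footprints, at 267, 254 and 299 CPM in Nterm/Nterm libraries, against 225, 207 and 228 CPM in wt/wt libraries, did not overlap either, with a log2 change of 0.32 ± 0.07 (SE, adjusted p = 0.00725). HMGCS1 makes HMG-CoA from the product of that reaction. In RNA it had 432, 416 and 466 CPM in Nterm/Nterm libraries, against 357, 364 and 392 CPM in wt/wt libraries, with every Nterm/Nterm library above every wt/wt library and a log2 change of 0.24 ± 0.05 (SE, adjusted p = 0.00866). HMGCS1 footprints averaged 735 ± 32.8 CPM in Nterm/Nterm and 638 ± 45.5 CPM in wt/wt libraries (SD, n = 3 each), a difference that was not called (0.20, adjusted p = 0.0936). MVK, mevalonate kinase, stood in RNA at 27.3, 24.99 and 29.1 CPM in Nterm/Nterm libraries, against 19.5, 22.6 and 23.6 CPM in wt/wt libraries. Its lowest Nterm/Nterm value, in library 2, was close to its highest wt/wt value, and the log2 change was 0.31 ± 0.09 (SE, adjusted p = 0.0265). In footprints MVK was not called, at 0.21 (adjusted p = 0.179).

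PMVK, the kinase of the next step, did not share the direction of its neighbours in RNA. It averaged 21.7 ± 1.73 CPM in Nterm/Nterm and 21.9 ± 0.296 CPM in wt/wt libraries (SD, n = 3 each), a log2 change of -0.01 (adjusted p = 0.919), and its footprint change was 0.10 (adjusted p = 0.503). MVD, the decarboxylase that yields isopentenyl diphosphate, had 108, 93.5 and 110.0 CPM in Nterm/Nterm libraries, against 88.7, 84.2 and 91.3 CPM in wt/wt libraries in RNA. That was a log2 change of 0.24 ± 0.06 (SE, adjusted p = 0.0206), beside 0.23 (adjusted p = 0.0522) in footprints, which was not called. IDI1 interconverts the isoprenoid building blocks, and its RNA measured 116, 102 and 118 CPM in Nterm/Nterm libraries, against 94.9, 97.7 and 99.2 CPM in wt/wt libraries. The change of 0.20 ± 0.06 (SE, adjusted p = 0.0243) in RNA was called and that of 0.16 (adjusted p = 0.130) in footprints was not. FDPS, which condenses the building blocks to farnesyl diphosphate, had 100.5, 97.8 and 108 CPM in Nterm/Nterm libraries, against 89.5, 89.03 and 90.7 CPM in wt/wt libraries in RNA. Its footprints measured 223, 208 and 218 CPM in Nterm/Nterm libraries, against 175, 181 and 199 CPM in wt/wt libraries. Both changes were called, at 0.18 ± 0.05 (SE, adjusted p = 0.0196) in RNA and 0.22 ± 0.07 (SE, adjusted p = 0.0359) in footprints, though reads of its 10 pseudogenes could be counted to it. GGPS1, which diverts farnesyl diphosphate to protein prenylation rather than sterols, averaged 58.96 ± 2.46 CPM in Nterm/Nterm and 56.3 ± 1.39 CPM in wt/wt libraries (SD, n = 3 each) in RNA and was called in neither assay (0.07, adjusted p = 0.401 in RNA, 0.07, adjusted p = 0.663 in footprints). Without wt/wt RNA library 1 or library 2, none of the 6 RNA calls of this arm held, with a highest adjusted p over the 12 alternatives of 0.0552 for ACAT2, 0.0630 for HMGCS1, 0.134 for MVK, 0.111 for MVD, 0.125 for IDI1 and 0.0936 for FDPS. The calls of MVK, MVD and IDI1 also ended without Nterm/Nterm RNA library 1 or 3, and that of FDPS without Nterm/Nterm RNA library 3. The ACAT2 footprint call held in all 12 alternatives, while that of FDPS ended without Nterm/Nterm footprint library 1 or 3 or wt/wt footprint library 1 or 2 (highest adjusted p 0.176).

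Between farnesyl diphosphate and lanosterol, 2 of 3 members, SQLE and LSS, were higher in both assays (background 7.25% in RNA and 4.36% in footprints). FDFT1, squalene synthase, which commits farnesyl diphosphate to sterols, averaged 252 ± 7.65 CPM in Nterm/Nterm and 238 ± 1.30 CPM in wt/wt libraries (SD, n = 3 each) in RNA. All its Nterm/Nterm libraries lay above all wt/wt libraries by a small margin, and it was not called (0.08, adjusted p = 0.171), though with replicate number as a block its adjusted p was 0.0357. SQLE, squalene epoxidase, known as a rate-limiting step of the later route, had 143, 141 and 163 CPM in Nterm/Nterm libraries, against 128, 122 and 138 CPM in wt/wt libraries in RNA. Its footprints, at 264, 267 and 279 CPM in Nterm/Nterm libraries, against 220.2, 209 and 233 CPM in wt/wt libraries, did not overlap, as in RNA. The log2 changes were 0.21 ± 0.06 (SE, adjusted p = 0.0382) in RNA and 0.29 ± 0.07 (SE, adjusted p = 0.00692) in footprints. The RNA call of SQLE ended without Nterm/Nterm RNA library 1 or 3 or wt/wt RNA library 1 or 2 (highest adjusted p 0.175), and its footprint call held in all 12 alternatives. LSS, the cyclase that forms the sterol rings as lanosterol, had 206, 205 and 227 CPM in Nterm/Nterm libraries, against 163, 162 and 178 CPM in wt/wt libraries in RNA. This was the largest RNA increase of any member, 0.34 ± 0.05 (SE, adjusted p = 0.00176), and it was called in all 12 alternatives. LSS footprints, at 221, 215 and 239 CPM in Nterm/Nterm libraries, against 184, 193 and 199 CPM in wt/wt libraries, gave 0.23 ± 0.07 (SE, adjusted p = 0.0283). That call ended without Nterm/Nterm footprint library 1 or 3 or wt/wt footprint library 1 or 2 (highest adjusted p 0.146).

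**Figure D2:**
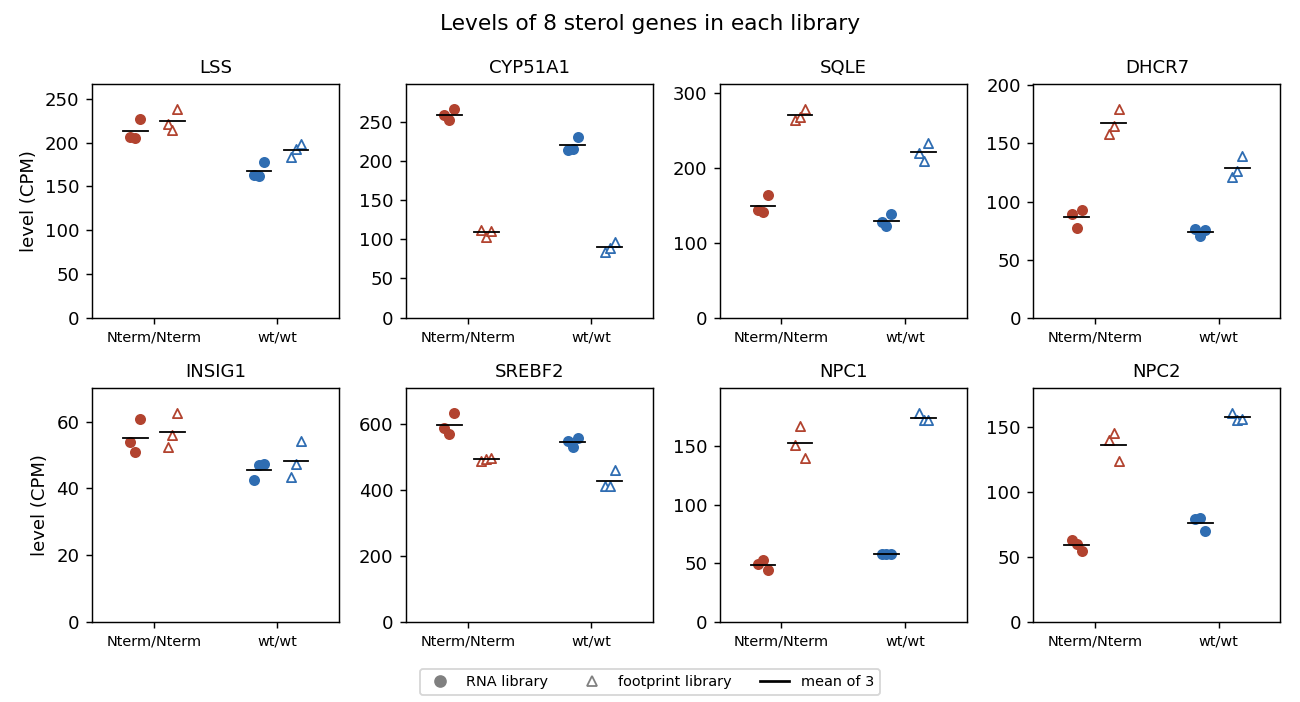
Level in CPM, counts scaled to library size, of 8 sterol genes in each library, with Nterm/Nterm on the left and wt/wt on the right of each panel. Circles are RNA and triangles footprint libraries, bars are means of 3, and LSS, CYP51A1, SQLE and DHCR7 lie higher in Nterm/Nterm where NPC1 and NPC2 lie lower.

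On the way from lanosterol to cholesterol, all 10 members had a positive log2 change in both assays (background 49.9% in RNA and 52.1% in footprints). Called higher were 5 in RNA (background 7.25%) and 4 in footprints (background 4.36%). CYP51A1, the lanosterol demethylase, had 259, 253 and 267 CPM in Nterm/Nterm libraries, against 214, 215 and 232 CPM in wt/wt libraries in RNA. The groups were separate, with a log2 change of 0.24 ± 0.04 (SE, adjusted p = 0.00448) that was called in all 12 alternatives. Its footprints, at 112, 103 and 111 CPM in Nterm/Nterm libraries, against 83.5, 89.05 and 97.1 CPM in wt/wt libraries, were also separate, with 0.28 ± 0.07 (SE, adjusted p = 0.0127). TM7SF2 and LBR share the next reduction, and LBR also anchors chromatin at the inner nuclear membrane. TM7SF2 was called in footprints, with 93.8, 99.7 and 101 CPM in Nterm/Nterm libraries, against 80.3, 84.6 and 89.3 CPM in wt/wt libraries and a change of 0.21 ± 0.07 (SE, adjusted p = 0.0433). In RNA, TM7SF2 had 83.1, 71.7 and 80.1 CPM in Nterm/Nterm libraries, against 70.5, 68.3 and 75.9 CPM in wt/wt libraries, which was not called (0.13, adjusted p = 0.168). It was called with replicate number as a block (adjusted p = 0.0270) and without Nterm/Nterm RNA library 2 (adjusted p = 0.0426). LBR showed the reverse, with RNA at 49.7, 45.8 and 46.6 CPM in Nterm/Nterm libraries, against 39.04, 41.4 and 43.3 CPM in wt/wt libraries, a called change of 0.20 ± 0.06 (SE, adjusted p = 0.0365). Its footprint change was 0.10 (adjusted p = 0.394).

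MSMO1, NSDHL and HSD17B7 remove methyl groups from the sterol ring in turn, and ERG28, named after a yeast protein, is thought from yeast to tether these enzymes. Of the 4, only MSMO1 was called by the test used throughout, with RNA at 183, 176 and 180.2 CPM in Nterm/Nterm libraries, against 158, 159 and 160.4 CPM in wt/wt libraries. Its log2 change was 0.18 ± 0.04 (SE, adjusted p = 0.0114) in RNA and 0.14 (adjusted p = 0.254) in footprints. NSDHL had nearly the same fitted RNA change as called members but a wider error, 0.20 ± 0.07 (SE, adjusted p = 0.0634). It was called with the replicate block (adjusted p = 0.00858) and without Nterm/Nterm RNA library 2 (adjusted p = 0.0343). Its footprint change was 0.18 (adjusted p = 0.0859). The fitted changes of HSD17B7 were 0.11 (adjusted p = 0.414) in RNA and 0.08 (adjusted p = 0.563) in footprints, and those of ERG28 0.08 (adjusted p = 0.444) and 0.11 (adjusted p = 0.321). EBP, the isomerase that moves the ring double bond, was the member with the largest footprint change. It had 33.5, 31.7 and 34.5 CPM in Nterm/Nterm libraries, against 27.5, 27.1 and 28.7 CPM in wt/wt libraries in RNA and a change of 0.26 ± 0.06 (SE, adjusted p = 0.0144). EBP footprints, at 14.3, 16.1 and 17.7 CPM in Nterm/Nterm libraries, against 10.7, 12.3 and 12.6 CPM in wt/wt libraries, gave 0.43 ± 0.12 (SE, adjusted p = 0.0190). SC5D, the desaturase after EBP, had a fitted change of 0.14 ± 0.05 (SE, adjusted p = 0.0612) in RNA and 0.19 (adjusted p = 0.0857) in footprints. The RNA change was called with the replicate block (adjusted p = 0.00874) and without Nterm/Nterm RNA library 2 (adjusted p = 0.0261). DHCR7, which reduces the last precursor to cholesterol and is mutated in Smith-Lemli-Opitz syndrome, had 89.0, 77.2 and 92.7 CPM in Nterm/Nterm libraries, against 76.1, 69.99 and 75.7 CPM in wt/wt libraries in RNA. Its Nterm/Nterm library 2 lay just above the wt/wt libraries, and the change was 0.22 ± 0.07 (SE, adjusted p = 0.0345). DHCR7 footprints did not overlap, at 158, 165 and 180.0 CPM in Nterm/Nterm libraries, against 121, 126 and 139 CPM in wt/wt libraries, with a change of 0.38 ± 0.07 (SE, adjusted p = 0.00128) that was called in all 12 alternatives.

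Among these 10 genes, leaving out wt/wt RNA library 1 or library 2 ended the RNA calls of LBR, MSMO1, EBP and DHCR7, with highest adjusted p of 0.175, 0.0691, 0.0759 and 0.159. Leaving out Nterm/Nterm RNA library 1 also ended those of LBR and DHCR7, and leaving out Nterm/Nterm RNA library 3 that of DHCR7. In footprints, CYP51A1 was not called without Nterm/Nterm library 1 or wt/wt library 1 or 2 (highest adjusted p 0.0829), and EBP was not called without Nterm/Nterm library 3 or wt/wt library 1 (highest 0.108). The TM7SF2 footprint call was lost in 5 of the 6 fits that left out a library, all but the one without wt/wt library 3, and with DESeq2 (highest 0.175).

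Of the 5 control genes, 1 was higher in RNA and another in footprints, and 0 were lower in either assay. The backgrounds were 7.25% higher and 10.6% lower in RNA and 4.36% and 8.91% in footprints, and nothing is read from 1 call. INSIG1, itself an SREBP target and the retention factor of SCAP, had 53.97, 50.8 and 60.8 CPM in Nterm/Nterm libraries, against 42.6, 46.9 and 47.2 CPM in wt/wt libraries in RNA. It was higher in each Nterm/Nterm library, with library 3 the highest, and its change was 0.28 ± 0.07 (SE, adjusted p = 0.0183). INSIG1 footprints, at 52.3, 56.1 and 62.6 CPM in Nterm/Nterm libraries, against 43.5, 47.3 and 54.3 CPM in wt/wt libraries, overlapped and were not called (0.24, adjusted p = 0.0731). INSIG2, the paralogue that does not depend on SREBP in the same way, was called in footprints alone, at 30.2, 27.2 and 33.4 CPM in Nterm/Nterm libraries, against 24.2, 21.1 and 24.03 CPM in wt/wt libraries. Its footprint change was 0.39 ± 0.10 (SE, adjusted p = 0.00962). In RNA its levels were 35.3, 36.9 and 38.7 CPM in Nterm/Nterm libraries, against 31.9, 30.1 and 34.6 CPM in wt/wt libraries, and the change of 0.20 (adjusted p = 0.0593) was called with the replicate block (adjusted p = 0.0107) and without wt/wt RNA library 3 (adjusted p = 0.0306). SREBF2, whose product SREBP2 is the main activator of sterol synthesis genes, averaged 597 ± 33.7 CPM in Nterm/Nterm and 547 ± 13.5 CPM in wt/wt libraries (SD, n = 3 each) in RNA. Every Nterm/Nterm library was above every wt/wt library, but the change of 0.13 ± 0.05 (SE, adjusted p = 0.0727) was called only with the replicate block (adjusted p = 0.000670) and without Nterm/Nterm RNA library 2 (adjusted p = 0.0340). SREBF2 footprints averaged 494 ± 5.97 CPM in Nterm/Nterm and 428 ± 27.4 CPM in wt/wt libraries (SD, n = 3 each), also without a call (0.21, adjusted p = 0.0662). SREBF1, which encodes the SREBP1 forms that favour fatty acid genes, averaged 24.3 ± 1.61 CPM in Nterm/Nterm and 25.5 ± 0.746 CPM in wt/wt libraries (SD, n = 3 each) in RNA, without a call (-0.07, adjusted p = 0.516 in RNA, -0.06, adjusted p = 0.655 in footprints). SCAP, the escort protein, averaged 122 ± 2.98 CPM in Nterm/Nterm and 127 ± 3.09 CPM in wt/wt libraries (SD, n = 3 each) in RNA, also without one (-0.06, adjusted p = 0.381 in RNA, -0.04, adjusted p = 0.750 in footprints). The mature SREBP proteins were not measured, since both assays count RNA. INSIG1 lost its RNA call without Nterm/Nterm RNA library 3 or wt/wt RNA library 1 or 2 (highest adjusted p 0.108), and INSIG2 its footprint call without Nterm/Nterm footprint library 3 or wt/wt footprint library 2 (highest 0.0763).

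Of the 4 transport genes, 1 was higher and 2 lower in RNA (background 7.25% and 10.6%). In footprints 0 were higher and 1 lower (background 4.36% and 8.91%), and nothing is read from so few calls about transport genes as a group. NPC1, the membrane protein that exports cholesterol from lysosomes, had 49.2, 52.7 and 44.02 CPM in Nterm/Nterm libraries, against 57.8, 58.1 and 57.8 CPM in wt/wt libraries in RNA. All Nterm/Nterm libraries were below the wt/wt libraries, which were nearly equal, and the change was -0.25 ± 0.06 (SE, adjusted p = 0.0169). NPC1 footprints, at 151, 167 and 139.8 CPM in Nterm/Nterm libraries, against 179, 172 and 172 CPM in wt/wt libraries, were separate in the same direction but not called (-0.19, adjusted p = 0.0809). NPC2, the soluble carrier that hands cholesterol to NPC1 in the lysosome, had 62.8, 60.02 and 54.8 CPM in Nterm/Nterm libraries, against 79.2, 80.01 and 70.4 CPM in wt/wt libraries in RNA. Library 3 was the lowest of the Nterm/Nterm libraries, and the change of -0.37 ± 0.06 (SE, adjusted p = 0.00303), the largest decrease of any member, was called in all 12 alternatives. NPC2 footprints, at 140.0, 145 and 124 CPM in Nterm/Nterm libraries, against 161, 156 and 157 CPM in wt/wt libraries, changed by -0.21 ± 0.07 (SE, adjusted p = 0.0477). This footprint call was lost with DESeq2 and in 5 of the 6 fits that left out a library, all but the one without Nterm/Nterm library 2 (highest adjusted p 0.272). The NPC1 RNA call was lost without wt/wt RNA library 1 or 2 (highest 0.0696). TMEM97, a sterol-responsive membrane protein known to bind NPC1, went the other way, with RNA at 59.7, 55.2 and 60.9 CPM in Nterm/Nterm libraries, against 52.03, 48.8 and 53.9 CPM in wt/wt libraries. Its RNA change was 0.18 ± 0.06 (SE, adjusted p = 0.0442), lost with DESeq2 and without Nterm/Nterm RNA library 1 or 3 or wt/wt RNA library 1 or 2 (highest 0.194), and its footprint change was 0.18 (adjusted p = 0.108). STARD4, a cytosolic sterol carrier, averaged 42.4 ± 0.834 CPM in Nterm/Nterm and 43.9 ± 1.70 CPM in wt/wt libraries (SD, n = 3 each) in RNA and was not called in RNA (-0.05, adjusted p = 0.562) or footprints (-0.14, adjusted p = 0.263).

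Of the 5 fatty acid enzymes, 2 were higher in each assay, both desaturases (background 7.25% in RNA and 4.36% in footprints). SCD, which makes monounsaturated fatty acids, had RNA at 641, 638 and 718 CPM in Nterm/Nterm libraries, against 529, 537 and 581 CPM in wt/wt libraries. The change of 0.28 ± 0.05 (SE, adjusted p = 0.00520) was called in all 12 alternatives. SCD footprints, at 567, 576 and 594 CPM in Nterm/Nterm libraries, against 476, 439 and 519.6 CPM in wt/wt libraries, changed by 0.28 ± 0.08 (SE, adjusted p = 0.0217), a call that held without wt/wt footprint library 3 and ended without any other single footprint library (highest adjusted p 0.0942). FADS2, which desaturates polyunsaturated fatty acids, had 349, 342 and 361 CPM in Nterm/Nterm libraries, against 298, 295 and 327 CPM in wt/wt libraries in RNA. Its footprints, at 474, 477 and 480.5 CPM in Nterm/Nterm libraries, against 388, 368 and 427 CPM in wt/wt libraries, were likewise separate. The changes were 0.19 ± 0.05 (SE, adjusted p = 0.0155) in RNA and 0.27 ± 0.07 (SE, adjusted p = 0.0171) in footprints, the first lost without wt/wt RNA library 1 or 2 (highest 0.0995), the second without Nterm/Nterm footprint library 1 or wt/wt footprint library 1 or 2 (highest 0.0874). FADS1, its neighbour in the genome and in the pathway, had a fitted change of 0.09 (adjusted p = 0.176) in RNA, called with the replicate block (adjusted p = 0.0358), and 0.12 (adjusted p = 0.221) in footprints. FASN, the fatty acid synthase, averaged 478 ± 43.2 CPM in Nterm/Nterm and 451 ± 23.7 CPM in wt/wt libraries (SD, n = 3 each) in RNA. Its change of 0.08 (adjusted p = 0.381) in RNA was called with the replicate block (adjusted p = 0.0267), and that of 0.22 (adjusted p = 0.0830) in footprints was not called. ACSS2, which makes acetyl-CoA from acetate, was called in neither assay (0.10, adjusted p = 0.371 in RNA, 0.11, adjusted p = 0.342 in footprints).

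The libraries of 1 genotype differed in how far the route was raised. The mean log2 level of the 21 genes of the route, centred over the 6 RNA libraries, was 0.11, 0.01 and 0.16 in Nterm/Nterm libraries, against -0.11, -0.12 and -0.05 in wt/wt libraries. Nterm/Nterm library 2 and wt/wt library 3 were the closest of the 2 groups, and Nterm/Nterm library 3 was the highest. For NPC1 and NPC2 the same measure was -0.10, -0.09 and -0.28 in Nterm/Nterm libraries, against 0.18, 0.19 and 0.10 in wt/wt libraries, with Nterm/Nterm library 3 the lowest. In footprint libraries the route stood at 0.08, 0.07 and 0.16 in Nterm/Nterm libraries, against -0.13, -0.13 and -0.05 in wt/wt libraries.

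Cell type markers were read in the same libraries, beside RNA backgrounds of 7.25% higher and 10.6% lower. A list with 1 or 2 calls is not read as shifted. Neuron markers, such as the neurofilament gene NEFL (0.30 ± 0.05 SE, adjusted p = 0.00338), NEFM (0.26 ± 0.04 SE, adjusted p = 0.00104) and DCX (0.26 ± 0.05 SE, adjusted p = 0.00630), were higher in RNA for 9 of 14 and lower for 0, with a median of 0.15. Their mean centred level was 0.08, 0.03 and 0.14 in Nterm/Nterm libraries, against -0.10, -0.12 and -0.03 in wt/wt libraries, and they summed to 19371 to 20971 CPM in Nterm/Nterm and 16927 to 18136 CPM in wt/wt libraries. Of 13 named mesenchymal markers, 9 were lower and 1, THY1 (0.19 ± 0.06 SE, adjusted p = 0.0359), higher, with a median of -0.54, among them COL1A1 (-1.31 ± 0.15 SE, adjusted p = 0.000446), COL6A2 (-1.002 ± 0.13 SE, adjusted p = 0.000683) and ACTA2 (-0.77 ± 0.11 SE, adjusted p = 0.00140). Their mean centred level was -0.19, -0.10 and -0.46 in Nterm/Nterm libraries, against 0.32, 0.34 and 0.09 in wt/wt libraries, and they summed to 4352 to 5555 CPM in Nterm/Nterm and 6111 to 7359 CPM in wt/wt libraries. Neural progenitor markers were lower for 6 of 11 and higher for 1, with a median of -0.36, among them NOTCH1 (-0.55 ± 0.08 SE, adjusted p = 0.00131), ID1 (-0.52 ± 0.09 SE, adjusted p = 0.00313) and ID3 (-0.50 ± 0.05 SE, adjusted p = 0.000244), with SOX1 higher (0.84 ± 0.10 SE, adjusted p = 0.000446), and they summed to 1144 to 1299 CPM in Nterm/Nterm and 1399 to 1503 CPM in wt/wt libraries. Pluripotency markers were lower for 2 of 6, LIN28A (-0.51 ± 0.07 SE, adjusted p = 0.000642) and CDH1 (-0.35 ± 0.07 SE, adjusted p = 0.00484), with a sum of 476 to 556 CPM in Nterm/Nterm and 630.3 to 705 CPM in wt/wt libraries. Of 3 named astrocyte and oligodendrocyte markers, GJA1 was lower (-0.59 ± 0.14 SE, adjusted p = 0.0154), with a sum of 173 to 176 CPM in Nterm/Nterm and 166 to 177 CPM in wt/wt libraries. Markers without a name in the deposited tables, GFAP, AQP4, COL3A1 and POU5F1 among them, could not be read. In bulk libraries such as these, fewer cells of a type and less RNA per cell cannot be told apart, and the part of these markers in the sterol gene differences was not tested.

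**Figure D3:**
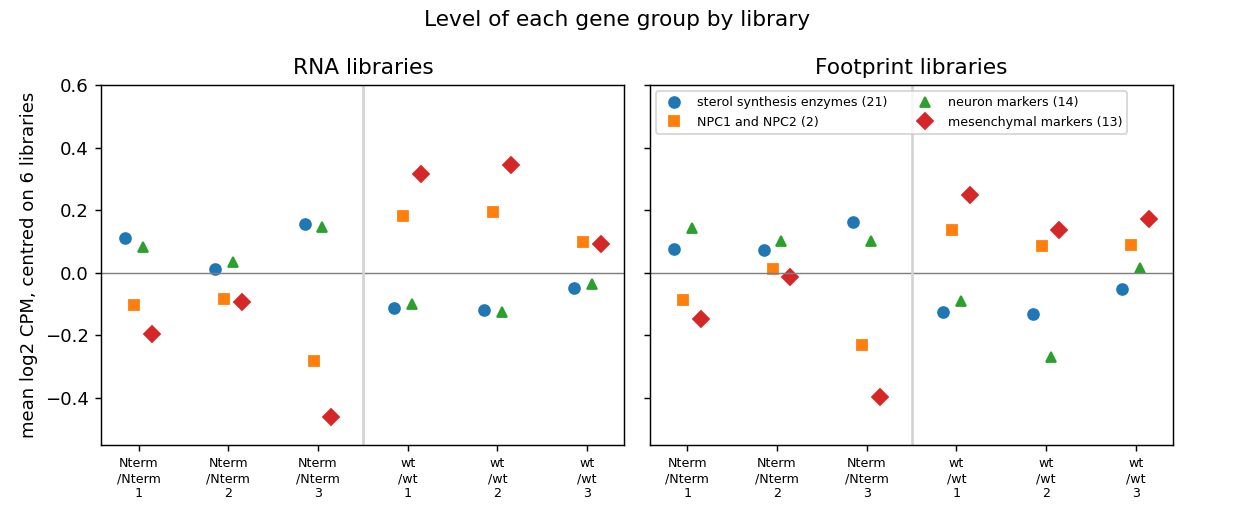
Mean log2 CPM of 4 gene groups in each library, centred on the 6 libraries of the assay, for RNA (left) and footprints (right), with Nterm/Nterm libraries 1 to 3 before wt/wt libraries 1 to 3. In RNA the sterol synthesis genes are highest, at 0.16, and the mesenchymal markers lowest, at -0.46, in Nterm/Nterm library 3.

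With the titles followed, no member was called for a difference between genotypes in ribosome occupancy per mRNA. With the genotype tag of the Ribo-seq samples followed instead, 2 members were higher (background 15.5%) and 25 lower (background 12.5%), with a median log2 change of -0.34. Translational efficiency, footprints relative to mRNA, was tested with 1 model of all 12 libraries, through its term for a genotype effect that differs between assays. Called higher were 0 members and lower 0, by edgeR and also by DESeq2 and limma-voom, and 0 members had an unadjusted p under 0.05 in edgeR (background 4.6%). The background of adjusted calls was 0.0203%, or 3 of 14786 transcripts. The fitted changes ran between -0.11 for LSS and 0.20 for INSIG2, with a median of 0.02 beside 0.01 for all transcripts. The outermost were INSIG2 at 0.20 ± 0.12 (SE), EBP at 0.17 ± 0.12 (SE), DHCR7 at 0.16 ± 0.10 (SE), NPC2 at 0.16 ± 0.10 (SE) and LSS at -0.11 ± 0.09 (SE), each with an adjusted p of 0.9999. At these standard errors a fitted change of 0.20, near the median RNA change of the members, did not pass, so changes of that size were not detectable here. In the authors' deposited table of translational efficiency, 1 member had an unadjusted p under 0.05, FADS2, with a ratio of 1.05 and p = 0.0428, where 4.67% of that table did, and 20 of the 35 members had a ratio above 1, where 50.2% of that table did.

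**Figure D4:**
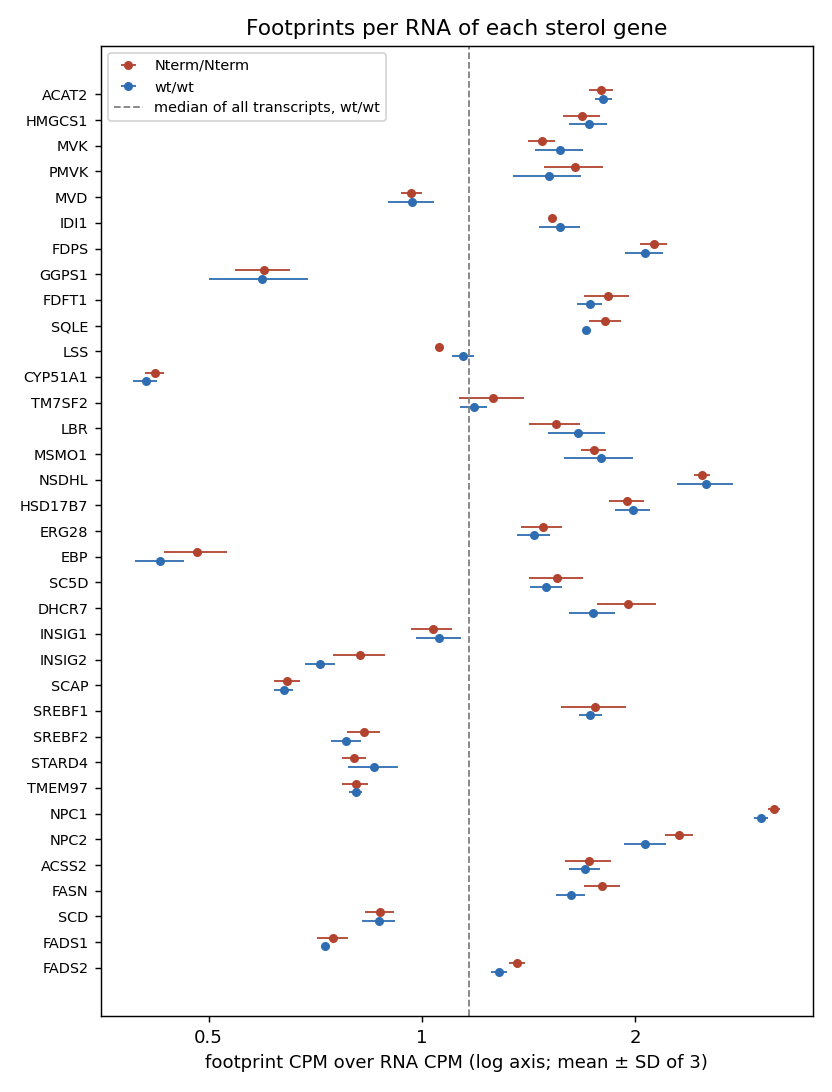
Footprint CPM over RNA CPM of each gene, for Nterm/Nterm (upper point of each pair) and wt/wt (lower point), on a log axis. Points are means and bars SDs of 3 ratios, each of a footprint library over the RNA library of the same number. The dashed line is the median of all transcripts in wt/wt, 1.16, and both genotypes lie close together for each gene while the genes spread between 0.407 and 3.01.

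The genes differed from each other more than the genotypes did in footprints per RNA. This ratio of CPM values, of a footprint library over the RNA library of the same number, has an arbitrary scale. It also depends on the region counted, which is not given. Ranks among transcripts are read from it, and these can depend on that region as well. In wt/wt neurons the members had a median of 1.51, beside 1.16 for 13422 transcripts, whose middle 50% lay between 0.750 and 1.68. At the low end stood CYP51A1, at 0.420 ± 0.0131 in Nterm/Nterm and 0.407 ± 0.0158 in wt/wt neurons (SD, n = 3 each), percentile 8.11 of wt/wt values, and EBP, at 0.482 ± 0.0488 in Nterm/Nterm and 0.428 ± 0.0345 in wt/wt neurons (SD, n = 3 each). Next came GGPS1 at 0.598 ± 0.0531 in Nterm/Nterm and 0.595 ± 0.0944 in wt/wt neurons (SD, n = 3 each), SCAP at 0.646 ± 0.0263 in Nterm/Nterm and 0.638 ± 0.0190 in wt/wt neurons (SD, n = 3 each) and INSIG2 at 0.818 ± 0.0689 in Nterm/Nterm and 0.718 ± 0.0349 in wt/wt neurons (SD, n = 3 each). At the high end stood NPC1, at 3.14 ± 0.0598 in Nterm/Nterm and 3.01 ± 0.0685 in wt/wt neurons (SD, n = 3 each), percentile 97.6, and NSDHL, at 2.48 ± 0.0628 in Nterm/Nterm and 2.52 ± 0.231 in wt/wt neurons (SD, n = 3 each). NPC2 at 2.31 ± 0.106 in Nterm/Nterm and 2.07 ± 0.141 in wt/wt neurons (SD, n = 3 each) and FDPS at 2.12 ± 0.0931 in Nterm/Nterm and 2.06 ± 0.124 in wt/wt neurons (SD, n = 3 each) followed. Along the route, CYP51A1 and EBP stood at the low end and NSDHL, which acts between them, at the high end.

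Genes around the route were read from 4 further lists. The backgrounds were 7.25% higher and 10.6% lower in RNA and 4.36% and 8.91% in footprints, and nothing is read from shares near them. Of 18 genes of SREBP processing and sterol-regulated degradation, 0 were higher and 1 lower in RNA, ERLIN1 (-0.30 ± 0.08 SE, adjusted p = 0.0285), an endoplasmic reticulum scaffold, and its footprints changed by -0.42 (adjusted p = 0.0147). The median of the list was 0.03. Of 13 named genes of the isoprenoid branches to dolichol, ubiquinone and prenylated proteins, 1 was higher and 0 lower, the prelamin A protease ZMPSTE24 (0.26 ± 0.06 SE, adjusted p = 0.00993), with a median of 0.04. Of 23 named genes of sterol uptake, transport, storage and turnover, 1 was higher, the oxysterol-binding relative OSBPL5 (0.23 ± 0.06 SE, adjusted p = 0.0266), and 3 were lower, with a median of -0.05. Those were MYLIP (-0.53 ± 0.08 SE, adjusted p = 0.00153), a ubiquitin ligase for lipoprotein receptors induced by LXR, the lipoprotein receptor SCARB1 (-0.31 ± 0.08 SE, adjusted p = 0.0255) and OSBPL1A (-0.26 ± 0.06 SE, adjusted p = 0.0110). Of 21 other named genes of fatty acid metabolism, 4 were higher and 3 lower, with a median of 0.05. The higher ones included the mitochondrial thiolase ACAT1 (0.24 ± 0.06 SE, adjusted p = 0.0217), the lipin LPIN1 (0.23 ± 0.07 SE, adjusted p = 0.0342) and the brain desaturase SCD5 (0.20 ± 0.05 SE, adjusted p = 0.0131), whose footprints also rose (0.27, adjusted p = 0.00674). The lower ones included HACD2 (-0.22 ± 0.07 SE, adjusted p = 0.0468) and the citrate carrier SLC25A1 (-0.15 ± 0.05 SE, adjusted p = 0.0483). In footprints these 4 lists had 1 higher and 2 lower of 18, 1 and 0 of 13, 1 and 2 of 23, and 3 and 1 of 21.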

How the data were processed

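RNA-seq and Ribo-seq libraries of Nterm/Nterm and wt/wt induced neurons were compared, 3 per genotype and assay, grouped by sample title. The deposited table holds whole-number counts per transcript, not normalised; per the submitters' processing notes, the tools were edgeR, limma, Salmon 1.4.0, Bowtie2 2.3.4.3, UMI-tools 1.0.1 and cutadapt 2.4, with build GRCh37 and no roles given. The authors' deposited table of translational efficiency gives a mean footprint-to-RNA ratio per genotype, per the file headers, with its SD, the fold between genotypes as a ratio, and an unadjusted p-value. A deposited mark of 0 or 1 for ratios below 1 was not used as a score. Gene names came from that table.

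From the counts, RNA and footprints were fitted separately with edgeR 4.0.16 in R 4.3.3 (filterByExpr with a minimum count of 10, TMM scaling, quasi-likelihood F test, two-sided, Benjamini-Hochberg adjustment, threshold 0.05). CPM values are scaled by TMM factors, and SE is the log2 change over the root of F. TMM within each assay was used for the interaction. Alternatives were RLE and upper-quartile scaling, no filter, DESeq2 1.42.0 without independent filtering, limma-voom (limma 3.58.1), a replicate block, each library left out in turn, and the genotype tag; without the tag these made 12 alternatives per gene. The fits were tested on simulated data with planted changes larger than that of any member. Changes of the members' size were not simulated. The main fits had no replicate block. Replicate numbers may pair the RNA samples. Same-numbered Nterm/Nterm and wt/wt RNA libraries deviated together from their group means (r = 0.207, 0.233 and 0.452 across transcripts). Those with unlike numbers had r between -0.356 and 0.172, the highest near the same-number values of 0.207 and 0.233. Deviations from a mean of 3 sum to 0, so unlike-number values depend on same-number ones and do not settle the pairing. Blocked values therefore stand beside RNA results whose call they change. Replicates are not stated to be separate cultures, so p-values measure the spread between these samples. A count of 100 carries a counting error of 10%. With 3 libraries against 3, an exact permutation test of a single gene cannot go below p = 0.1, so none is given.

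The members and lists were chosen with earlier results of these data known, and they support nothing on their own account. Members called in RNA or footprints are given by library; of each other list, up to 3 called genes with the largest RNA change in each direction are named, apart from 1 gene that is not reported here. Promoter sequences are from RefSeq, GRCh38.p14; 4 members had no window.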

Additional observations from a re-analysis of the deposited data

How the results depend on the processing

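With RLE or upper-quartile scaling, no filter, limma-voom and DESeq2, 16 or 17 members were called higher and 2 lower in RNA, and 11 to 16 higher in footprints, with 1 lower except with DESeq2, which called 0. Over these settings the background was 6.05% to 7.44% higher and 9.24% to 10.7% lower in RNA. In footprints it was 3.58% to 4.75% higher and 7.27% to 9.15% lower. With replicate number as a block, 25 members were higher and 2 lower in RNA, against 17 and 2, and the background rose to 14.3% higher and 16.4% lower. In footprints the block gave 13 higher and 1 lower (background 6.06% and 11%), adding MVD (adjusted p = 0.0181) and INSIG1 (0.0150), and in translational efficiency 0 and 0. There the numbers mark no shared batch in the labels, and same-numbered libraries correlated by 0.0222, 0.144 and 0.298 between genotypes, and by 0.205, 0.390 and 0.470 between RNA and footprints in Nterm/Nterm and 0.0372, 0.0845 and 0.262 in wt/wt. Footprint calls were gained without wt/wt library 3 for HMGCS1 (adjusted p = 0.0483), MVD (0.0158), INSIG1 (0.0213), SREBF2 (0.0239) and FASN (0.0157). They were gained without Nterm/Nterm library 2 for MVD (0.0293) and NPC1 (0.0304), and without Nterm/Nterm library 1 for SC5D (0.0431). The same first 5 genes gained one with no filter, HMGCS1, SREBF2 and FASN with DESeq2, and SREBF2 with limma-voom. Leaving out each library in turn, members called higher ranged between 3 and 21 in RNA and 4 and 16 in footprints, members called lower between 1 and 2 in RNA and 0 and 2 in footprints. In those fits the background of higher calls ranged between 1.56% and 7.69% in RNA and 1.23% and 5.56% in footprints. That of lower calls ranged between 4.13% and 11.6% in RNA and 5.12% and 9.42% in footprints. Grouped by the genotype tag of the Ribo-seq samples, the footprint counts become 1 higher and 11 lower with a median of -0.19 (background 8.91% and 4.36%). Those of translational efficiency become 2 higher and 25 lower with a median of -0.34 (background 15.5% and 12.5%). PMVK RNA changed sign to 0.040 without Nterm/Nterm RNA library 3 and ranged down to -0.075 without Nterm/Nterm RNA library 1, and GGPS1 footprints changed sign to -0.0091 without wt/wt footprint library 3 and ranged up to 0.17 without wt/wt footprint library 1, none of them called. Over 12 alternatives, 46 RNA and 35 footprint values of single members lost their call, 13 and 19 gained one, and 0 of 60 of translational efficiency changed. Depth did not leave any member under 100 counts in a library, and with 3 libraries a group the spread between libraries limits what can be called. The cause of these dependences was not tested.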
